A study of Mus musculus with 6 samples.

Results

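The MYC and MAX network was followed in mouse through 7 genes: the activators Myc and Mycn, their common partner Max, and the antagonists Mxd1, Mxd4, Mxi1 and Mnt. Their probe sets are all those that a platform annotation gives to only 1 of these genes; no measured value enters that rule, but the genes were picked with earlier results of these data known. This gave 16 probe sets for the 7 genes, out of 18193 genes that the array names. Expression was compared between Gata-1 Knock Down and Gata-1 Wild Type samples, 3 each, lettered A to C and hybridised to 1 Affymetrix array apiece. All 6 were mouse megakaryocytes, the large marrow cells that shed platelets, grown in differentiation medium from progenitors of fetal liver at embryonic day 13.5 and collected on a gradient of serum albumin. The labels read here do not state how the knock down was made, the strain, the number of animals, or whether the 3 samples of a group came from separate cultures. The p-values therefore cover the spread among these arrays alone, and that spread may be technical.

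MYC proteins bind DNA only when paired with MAX, through a basic helix-loop-helix and leucine zipper region, at E-box sequences, and there they raise transcription of genes for growth, ribosome making and division. MXD1, MXD4, MXI1 and MNT also pair with MAX, bind the same sequences, and recruit SIN3 corepressors with histone deacetylases. In blood cells Myc and Mycn are known from stem cells and cycling progenitors, and Mxd1 rises as myeloid cells mature. GATA1, a zinc finger factor of megakaryocytes and red cells, is known to lower Myc in maturing erythroid cells.

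The network split in knockdown samples. Mycn and Myc rose, by 3.94-fold and 1.71-fold, Mnt rose by 1.29-fold, Max fell 4.41-fold and Mxd1 fell 1.65-fold, while Mxd4 and Mxi1 did not pass the test. Of the 7 genes 3 were higher and 2 were lower. Among all 14230 genes tested 18.3% were called higher and 17.1% lower, so changes were common and a count of 5 among 7 says little by itself. The sizes were less common: 30 genes had a larger called rise than Mycn and 110 a larger called fall than Max. Calls are from limma across all probe sets at a Benjamini-Hochberg adjusted p of 0.05, with each gene read from its brightest probe set.

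The annotated promoters of Mycn and Max, which rose and fell most within the network, are shown because the network's own DNA site, the E-box CACGTG, lies in one of them. They run from 250 bases before to 50 after the start annotated by RefSeq on GRCm38.p6, 5′ to 3′ on the gene's strand. Mycn is at chr12:12941787-12942086 on the minus strand and Max at chr12:76962199-76962498 on the minus strand. Capitals mark motif matches: the E-box, and TTTGGCGC or TTTCGCGC, a consensus form of the site of E2F cell cycle factors, on either strand.
Mycn: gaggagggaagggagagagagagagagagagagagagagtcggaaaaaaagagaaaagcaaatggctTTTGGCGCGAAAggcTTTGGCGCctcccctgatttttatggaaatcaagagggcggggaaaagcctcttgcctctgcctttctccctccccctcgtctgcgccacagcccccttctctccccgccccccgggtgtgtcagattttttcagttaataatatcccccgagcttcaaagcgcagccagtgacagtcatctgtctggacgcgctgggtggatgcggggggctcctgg
Max: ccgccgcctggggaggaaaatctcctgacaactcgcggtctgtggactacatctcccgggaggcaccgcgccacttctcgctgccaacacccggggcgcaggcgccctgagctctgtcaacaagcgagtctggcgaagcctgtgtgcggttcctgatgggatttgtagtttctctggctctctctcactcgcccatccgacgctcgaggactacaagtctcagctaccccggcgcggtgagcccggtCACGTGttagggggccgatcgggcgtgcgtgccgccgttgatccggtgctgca

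In the Max promoter the E-box begins at position -3 relative to the annotated start. An E-box was also found in the promoters of Mxd4, at -219, and Mnt, at -123, and 7.15% of the 32851 promoters of this length hold one. The E2F letters begin at -183, -179 and -168 in the Mycn promoter, the first pair overlapping on opposite strands, and 0.813% of all promoters hold them. The E2F letters were searched after the Mycn sequence had been seen. The GATA letters AGATAA, also with T as the first letter or G as the last, were searched on both strands. They were in none of the 8 promoters listed for 6 of the genes, against 29.8% of all promoters. Myc had no listed promoter and was not searched, and those of Mxi1 partly overlap. The 8 promoters were 56% to 76.7% G or C, and the share of all promoters was not matched for this. A match is a description of these letters only. The E-box and E2F matches did not overlap.

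The arrays bore out their labels for the targeted gene. Gata1 read 153.5, 143.3 and 194.7 in knockdown A, B and C, against 8723.7, 8246.5 and 8495.6 in wild type A, B and C, a log2 fold change of -5.52 ± 0.12 (SE). Of the 11 tested markers of megakaryocytes 9 fell, with summed signals of 104859 to 129496 in knockdown and 155507 to 166275 in wild type. All 10 tested macrophage markers fell (summed signals 7691.1 to 7754.5 in knockdown, 20665.7 to 21258.6 in wild type), as did 8 of 10 neutrophil markers (3122.5 to 3215.6 against 11125.4 to 11565.7) and 7 of 9 mast cell markers (1285.2 to 1468.9 against 4397.6 to 4987.6). Of the 9 mast cell markers 6 lay within background on every knockdown array and 0 did in wild type. Erythroid markers gave 1 rise and 3 falls among 6 tested (summed signals 3282.3 to 3561 in knockdown, 15100.6 to 15418.7 in wild type), and hepatocyte markers 1 fall among 4 (503 to 777.5 against 1190.8 to 1302.6). Most of the erythroid drop was in Hbb-y (mean 1125 in knockdown, 9748 in wild type) and Epor (757 and 3990). Slc4a1 rose, and Klf1 and Hba-a1 were not called. Most of the hepatocyte drop was in Afp (370 and 913). Knockdown B had the highest median signal, 137.8 against 101.6 to 118.4 on the other arrays, and the highest bacterial control signal. These bulk samples cannot tell fewer cells of a type from less RNA per cell.

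Mycn, whose protein stands in for MYC in stem cells and in the embryo, had the largest rise of the network. Its main probe set, 1417155_at, read 5428.5, 6045.8 and 6261.1 in knockdown A, B and C, against 1498.3, 1348.9 and 1767.6 in wild type A, B and C. Every knockdown array lay above every wild-type array by a wide margin. The means were 5912 ± 432 in knockdown samples and 1538 ± 212 in wild-type samples (SD, n = 3 each), the log2 fold change was 1.98 ± 0.09 (SE), and the limma adjusted p was 1.94e-07.

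A second Mycn probe set, 1425922_a_at, gave the same direction from lower signals. It read 778.2, 886.8 and 931.8 in knockdown, against 328.6, 399.2 and 167.1 in wild type, with wild type C the lowest of all. Its log2 fold change was 1.43 ± 0.23 (limma adjusted p 0.000962). The third, 1425923_at, listed under the same source sequence as the second, stayed between 18.1 and 28.2 on all 6 arrays, at or below the bacterial controls, and was too dim to be tested. Averaging all 3 probe sets, the dim one included, gave 1.10 for the gene, which still passed.

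Myc, the founding member, rose by less. Its single probe set, 1424942_a_at, read 1504.1, 1340.7 and 1410.1 in knockdown A, B and C, against 845.4, 752.9 and 807.3 in wild type A, B and C. The groups did not overlap and each was tight. The means were 1418 ± 82.0 in knockdown arrays and 802 ± 46.5 in wild-type arrays (SD, n = 3 each), and Myc rose by 0.78 ± 0.08 on the log2 scale (limma adjusted p 4.45e-05).

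Mycn moved further than Myc on the same arrays, by the brightest probe set of Mycn and the only one of Myc. The within-array difference Mycn minus Myc, in normalized log2 units, was 1.89, 2.19 and 2.15 in knockdown and 0.78, 0.80 and 1.05 in wild type. Only the shift between the groups, 1.20, can be read, since the levels of different probe sets are not comparable. All knockdown arrays lay above all wild-type arrays, and the two-sided exact permutation p was 0.1, the smallest that 3 against 3 arrays allow. The second tested Mycn probe set, 1425922_a_at, was not put to this test. With it the groups would overlap: it and Myc read 9.62 and 10.57 in knockdown A, and 8.79 and 9.63 in wild type B.

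Max, the common partner of the other proteins, had the largest fall. Its single probe set, 1423501_at, read 701.5, 726.7 and 717.9 in knockdown A, B and C, against 3143.8, 3357.9 and 3306.8 in wild type A, B and C. The 3 knockdown arrays lay close together and far below every wild-type array. Means were 715 ± 12.8 in knockdown arrays and 3269.5 ± 112 in wild-type arrays (SD, n = 3 each). The log2 fold change of -2.14 ± 0.07 had a limma adjusted p of 1.69e-08, and lay between -2.34 and -2.04 under all 16 alternatives tried.

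With 1 probe set, the fall of Max could not be compared with a second reading of the gene, and which Max transcripts this probe set reads was not known here. The tested genes next to Max in the annotation's order, looked up after its value was seen, included no called fall. Of all genes 17.1% were called lower, so the absence of a fall among so few neighbours says little. Fut8, on one side, rose by 0.73 ± 0.04, while Fntb and Rab15, on the other, had log2 fold changes of 0.10 ± 0.28 and -0.02 ± 0.11 and did not pass (limma adjusted p 0.835 and 0.918). Next to Mycn, on the same chromosome 12, Ddx1 rose by 0.44 ± 0.06 while Cyria and Nbas were called lower, at -0.89 ± 0.23 and -0.49 ± 0.13. The macrophage, neutrophil and mast cell markers given above fell in the same arrays as Max, and their part in its fall was not tested.

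**Figure D1:**
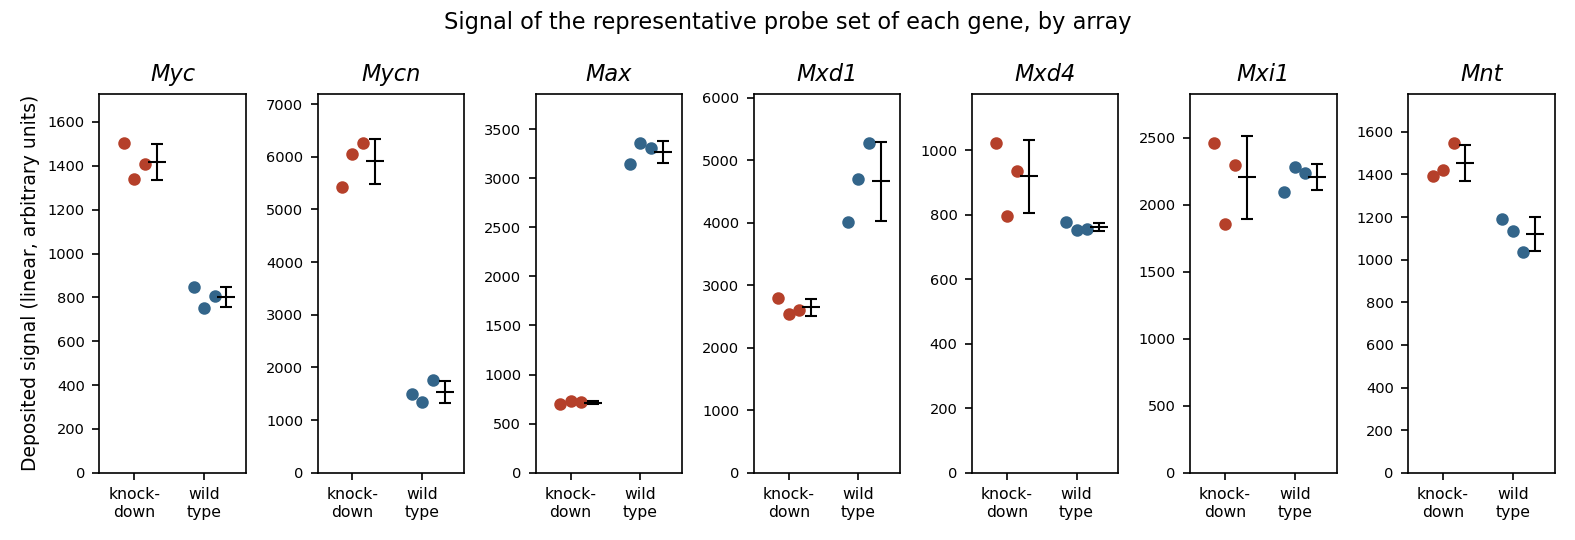
Deposited signal (linear, arbitrary units, each axis from 0) of the brightest probe set of each of the 7 genes, for knockdown (red) and wild type (blue) arrays A, B and C from left to right, with mean and SD as black bars. Max sits at 701.5 to 726.7 in knockdown and 3143.8 to 3357.9 in wild type, Mycn shows the reverse order, and the 2 groups overlap for Mxi1.

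The antagonists did not move together. Mxd1, the founding MXD repressor, fell on all 3 of its probe sets. The brightest, 1434830_at, read 2796.3, 2536.0 and 2609.2 in knockdown A, B and C, against 4017.2, 4700.2 and 5276.8 in wild type A, B and C. The highest knockdown array was below the lowest wild-type array, and the wild-type arrays were the more spread. Means were 2647 ± 134 in knockdown arrays and 4665 ± 631 in wild-type arrays (SD, n = 3 each), and the change was -0.72 ± 0.09 in log2 units (limma adjusted p 0.000136).

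The dimmer Mxd1 probe sets fell by more. Probe set 1455104_at read 1083.7, 1234.6 and 1407.4 in knockdown, against 2732.2, 2768.5 and 2601.8 in wild type. Probe set 1422002_at read 348.4, 268.4 and 299.5 in knockdown, against 732.3, 733.9 and 745.4 in wild type. Their log2 fold changes were -1.08 ± 0.10 and -1.29 ± 0.12 (limma adjusted p 1.69e-05 and 2.37e-05), and the groups did not overlap on either. The first of these is listed under the same source sequence as the brightest probe set. Mxd1 is also expressed by macrophages and neutrophils, whose markers fell in the same samples as given above, and their part in its fall was not tested.

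Mxd4, a repressor of the same family, did not pass on any of its 4 probe sets. Its brightest, 1434379_at, read 1022.5, 797.6 and 937.0 in knockdown A, B and C, against 776.8, 751.9 and 757.2 in wild type A, B and C. Each knockdown array was above each wild-type array, but knockdown B only narrowly. The log2 fold change was 0.20 ± 0.10 with a 95% confidence interval of -0.02 to 0.43 (limma adjusted p 0.157). Without knockdown B it was 0.30 and passed, with a limma adjusted p of 0.0254, and with arrays centred on their medians it was 0.058, with an adjusted p of 0.824.

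The other Mxd4 probe sets leaned the same way. Probe set 1434378_a_at, of the same source sequence, gave 0.35 ± 0.13 (limma adjusted p 0.0588). The dimmer 1422574_at and 1422575_at, which share another, gave 0.32 ± 0.15 and 0.26 ± 0.21 (adjusted p 0.137 and 0.424). The intervals of these 4 estimates reach at most 0.74, and only that of 1434378_a_at, 0.07 to 0.63, left out 0. Between the paralogs, the within-array difference Mxd4 minus Mxd1 was -1.46, -1.70 and -1.49 in knockdown and -2.25, -2.53 and -2.66 in wild type. It shifted by 0.93 and all knockdown arrays lay above all wild-type arrays (two-sided exact permutation p 0.1, again the smallest possible).

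Mxi1, also called MXD2, showed no detectable change. Its brightest probe set, 1450376_at, read 2461.8, 1856.9 and 2295.5 in knockdown A, B and C, against 2098.0, 2279.2 and 2240.3 in wild type A, B and C. The groups overlapped, with knockdown A the highest and knockdown B the lowest of the 6. The log2 fold change was 0.03 ± 0.09 with a 95% interval of -0.18 to 0.24 (limma adjusted p 0.838), so a change of the size seen in Mxd1 lay outside the interval. A second probe set, 1425732_a_at, gave 0.11 ± 0.12, with an interval of -0.15 to 0.37 and overlapping groups. The sign at the brightest probe set was not settled, since it was -0.20 with arrays centred on their medians, also without passing.

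Mnt, the broadly expressed MAX partner that opposes MYC in cycling cells, rose slightly. Its probe set 1418192_at read 1390.9, 1419.7 and 1547.8 in knockdown A, B and C, against 1191.5, 1134.5 and 1036.7 in wild type A, B and C. The groups did not overlap. Means were 1453 ± 83.5 in knockdown arrays and 1121 ± 78.3 in wild-type arrays (SD, n = 3 each), and the rise was 0.36 ± 0.08 in log2 units (limma adjusted p 0.00656). Median centring of the arrays ended this call, at 0.17 and an adjusted p of 0.321. A second probe set of the same source sequence, 1418193_at, was within background on all 3 knockdown arrays and 2 of the 3 wild-type arrays, and was not tested.

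**Figure D2:**
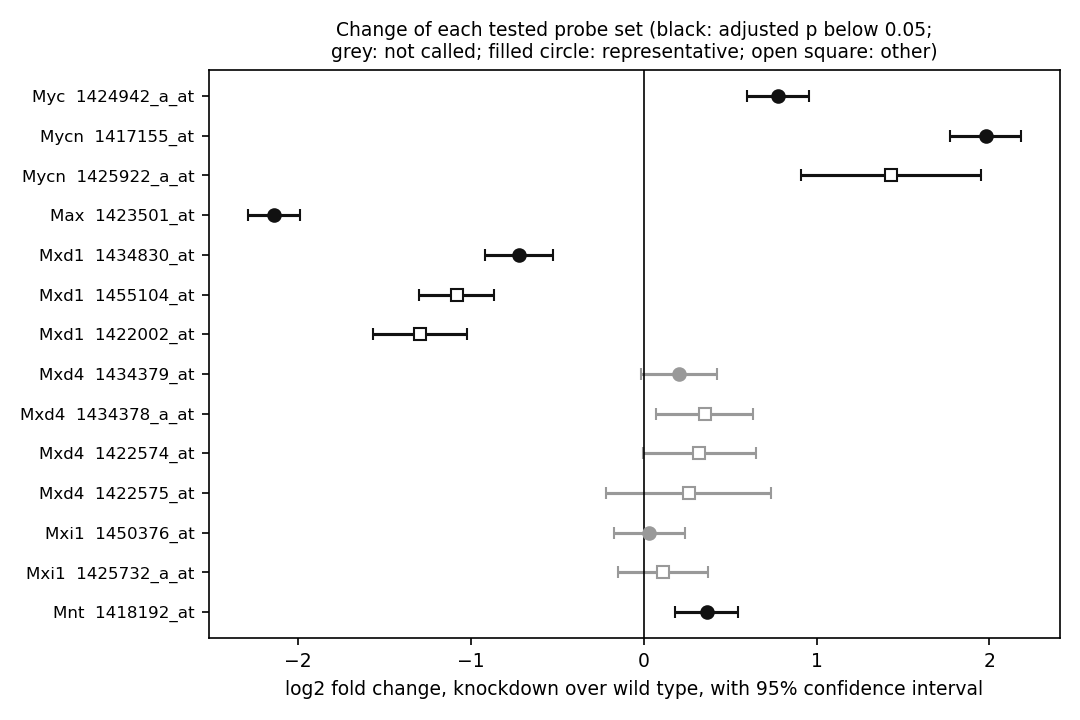
Log2 fold change (knockdown over wild type) with its 95% confidence interval for the 14 tested probe sets, grouped by gene. Both tested Mycn probe sets and all 3 of Mxd1 keep one direction, while every grey interval of Mxi1 spans 0.

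Over probe sets, 14 of the 16 passed the filter on dim signals, and 4 of these were higher, 4 lower and 6 not called. Of all 31526 probe sets tested, 16.1% were called higher and 14.3% lower.

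Of the 7 other genes of the MAX and MLX network 1 rose, 0 fell and 6 did not pass (median log2 fold change 0.15, against 0.03 over all genes tested). At 14.3% higher and 0% lower, against 18.3% and 17.1% of all genes, these counts are not above the background. The one called was Bmyc, a short rodent relative of Myc that lacks the DNA-binding region. It read 478.9, 438.7 and 534.2 in knockdown, against 195.9, 109.6 and 144.0 in wild type, and rose by 1.39 ± 0.18 on the log2 scale. Without knockdown B 2 of the 7 rose.

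Cofactors that MYC or its antagonists recruit were more often higher than lower. Among 20 tested there were 9 rises, 1 fall and 10 without a call, 45% called higher against 18.3% of all genes, with a median log2 fold change of 0.18. Wdr5, a chromatin adaptor that binds MYC, rose by 0.69 ± 0.09, and Sin3a, the corepressor scaffold of the MXD proteins, by 0.69 ± 0.08. The acetyltransferase Kat2a rose by 0.59 ± 0.09 and the helicase Ruvbl1 by 0.56 ± 0.08. The related acetyltransferase Kat2b, at -0.23 ± 0.07, was called lower, but not without knockdown A, knockdown C or any 1 wild-type array. With arrays centred on their medians 4 of these cofactors rose and 2 fell. Over all genes that centring gave 1188 rises and 2957 falls, against 2606 and 2439 as reported.

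Genes that control the stability of MYC protein had mixed calls, with 5 higher, 2 lower and 10 not called among 17 (median 0.09). That is 29.4% higher and 11.8% lower, against 18.3% and 17.1% of all genes, so the counts lie near the background. Cul1, of the ubiquitin ligases that FBXW7 and SKP2 direct to MYC, rose by 0.73 ± 0.07, and Skp2 itself by 0.64 ± 0.18. The mitotic kinase Plk1 rose by 0.51 ± 0.08 and the scaffold Axin1 by 0.49 ± 0.09. Trim32 and the phosphatase subunit Ppp2ca were called lower, at -0.38 ± 0.10 and -0.16 ± 0.05. Fbxw7, the ligase subunit that recognises phosphorylated MYC and outside the naming rule, was at -0.13 ± 0.10 on its brightest probe set. It did not pass there (limma adjusted p 0.381), though the other of its 2 probe sets was called lower. With arrays centred on their medians the balance turned, with 1 higher and 3 lower. It turned over all genes too, with 1188 higher and 2957 lower, against 2606 and 2439 as reported. Skp2 failed under this centring, and also without knockdown A or C or without wild type A or C. Leaving out any 1 wild-type array ended both falls, and leaving out knockdown C ended that of Ppp2ca.

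Targets that MYC activates were read from lists known mostly from other cell types. Of 31 genes of the nucleolus and of ribosome and protein making 28 rose, 1 fell and 2 did not pass. That is 90.3% called higher against 18.3% of all genes, with a median log2 fold change of 0.59. The nucleolar RNA-guided methylation proteins Nop58 and Nop56 rose by 1.30 ± 0.09 and 1.19 ± 0.06, the pseudouridine synthase Dkc1 by 0.92 ± 0.09 and the RNA polymerase I subunit Polr1b by 0.90 ± 0.11. Nop58 read 1496.7, 1729.5 and 1667.6 in knockdown, against 671.9, 586.5 and 636.8 in wild type. The 1 that fell was Rrp12, at -0.65 ± 0.21, a call lost without knockdown B or any 1 wild-type array. Centring arrays on their medians left 18 rises and 1 fall, while the rises over all genes went from 2606 to 1188.

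Metabolic targets were more divided, with 13 higher, 3 lower and 13 not called among 29 (median 0.22). That is 44.8% higher and 10.3% lower, against 18.3% and 17.1% of all genes. The glutamine transporter Slc1a5 had the largest rise, reading 3247.5, 3524.1 and 3803.2 in knockdown, against 660.7, 681.9 and 578.8 in wild type, a log2 fold change of 2.41 ± 0.09. The mitochondrial one-carbon enzymes Shmt2 and Mthfd2 rose by 1.19 ± 0.06 and 1.10 ± 0.08, and the purine enzyme Paics by 0.80 ± 0.07. The glucose transporter Slc2a1 fell by 0.53 on the log2 scale and the transferrin receptor Tfrc by 0.49. Only 1 of the 3 Tfrc probe sets was called. Ldha was called lower at -0.21, but its mean deposited signal was higher in knockdown, and its sign turned to 0.08, without passing, when the values were tested as deposited. Odc1, of polyamine synthesis and a long-known MYC target, named after its value was seen, was at -0.04 ± 0.05 (limma adjusted p 0.560). With arrays centred on their medians 8 metabolic targets rose, while the rises over all genes went from 2606 to 1188.

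Cell cycle targets gave 14 rises, 1 fall and 6 not called among 21 (median 0.39). That is 66.7% higher and 4.76% lower, against 18.3% and 17.1% of all genes. With arrays centred on their medians 5 rose, while the rises over all genes went from 2606 to 1188. Cdca7, a DNA-binding MYC target, rose by 1.08 ± 0.11, the kinase Cdk4 by 1.05 ± 0.08, E2f2 by 0.80 ± 0.09, and Cul1, which is in this list too, by the value above. The differentiation inhibitor Id2 was the 1 that fell, at -0.92 ± 0.13. Tert, whose protein extends telomeres, was within background on all 6 arrays on its brightest probe set.

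Genes that MYC is known to repress ran the other way. Among 16 tested there were 11 falls, 1 rise and 4 without a call, 68.8% called lower against 17.1% of all genes, with a median log2 fold change of -0.67. Cebpa, a myeloid transcription factor, read 228.8, 160.6 and 170.5 in knockdown, against 725.3, 639.7 and 596.9 in wild type, a log2 fold change of -1.79 ± 0.17. Ndrg1, named for its repression by MYC proteins, fell to 1706.6, 1667.2 and 1754.5 in knockdown, against 6125.0, 6157.0 and 6143.9 in wild type (log2 fold change -1.76 ± 0.05). The stress genes Gadd45a and Ddit3 fell by 1.58 and 1.14 on the log2 scale. Cdkn1a, which encodes the CDK inhibitor p21 and is the best known gene of this list, rose by 0.88 ± 0.05. Cebpa also marks myeloid cells. Markers of myeloid cells and most tested markers of megakaryocytes fell in these samples, and the part of these cells in any fall of this list was not tested.

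**Figure D3:**
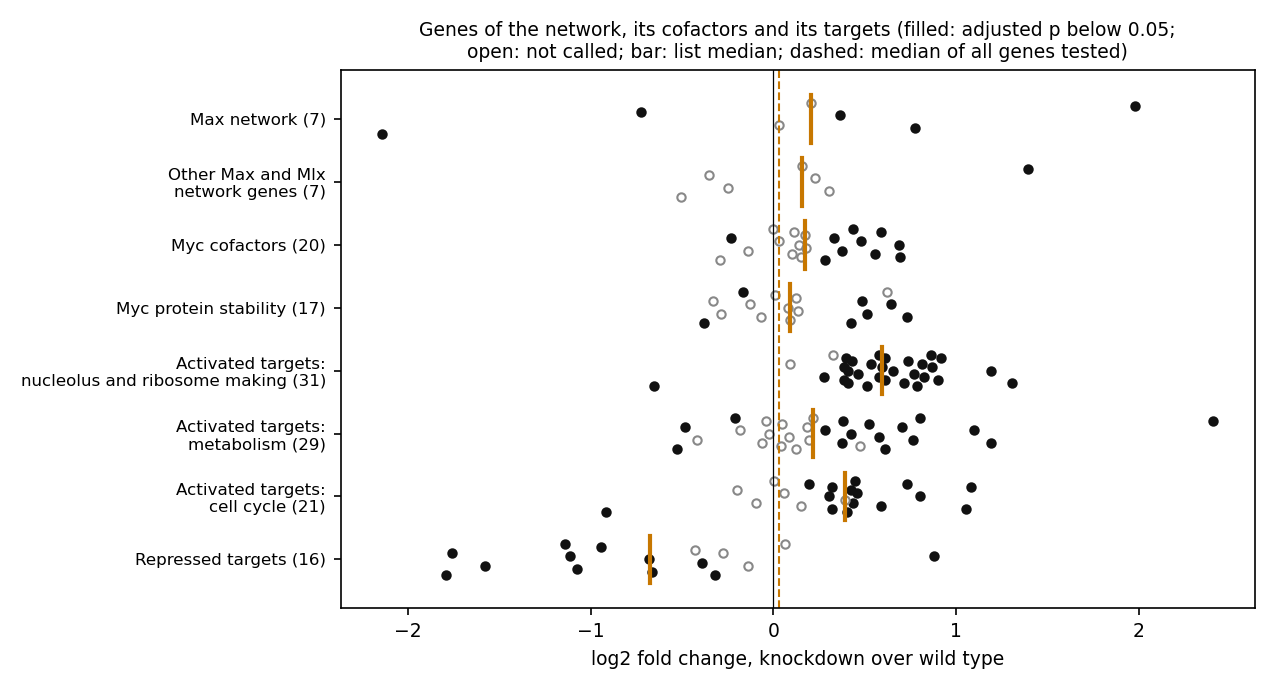
Log2 fold change (knockdown over wild type) of each tested gene, by list, with the number tested in brackets. The 31 nucleolar and ribosome-making targets centre on 0.59 and the 16 repressed targets on -0.67, while the 7 genes of the network run from -2.14 to 1.98.

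The genes whose 6 values ran closest to those of Myc, among 4905 called and named genes, were Wdr43, Hmgxb3 and Pim2. Likeness was the root mean square difference of the 6 normalized log2 values after centring each gene, and was 0.031, 0.035 and 0.042. Wdr43 is a nucleolar protein of the target list above and Pim2 a survival kinase. Pim2 read 2827.7, 2703.7 and 2732.7 in knockdown, against 1673.7, 1555.3 and 1605.3 in wild type. Closest to Mycn were Trib3 at 0.089 and Plxnb3 at 0.11. Zfp711 also met the rule, but its wild-type signals were within background on all 3 arrays, so its likeness and rank are not given. Trib3, a stress-inducible pseudokinase, had a log2 fold change of 1.93 ± 0.09, and Zfp711 was at least 2.66-fold higher in knockdown. With 2 groups of 3 arrays, this likeness is chiefly a difference of like size between the groups.

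**Figure D4:**
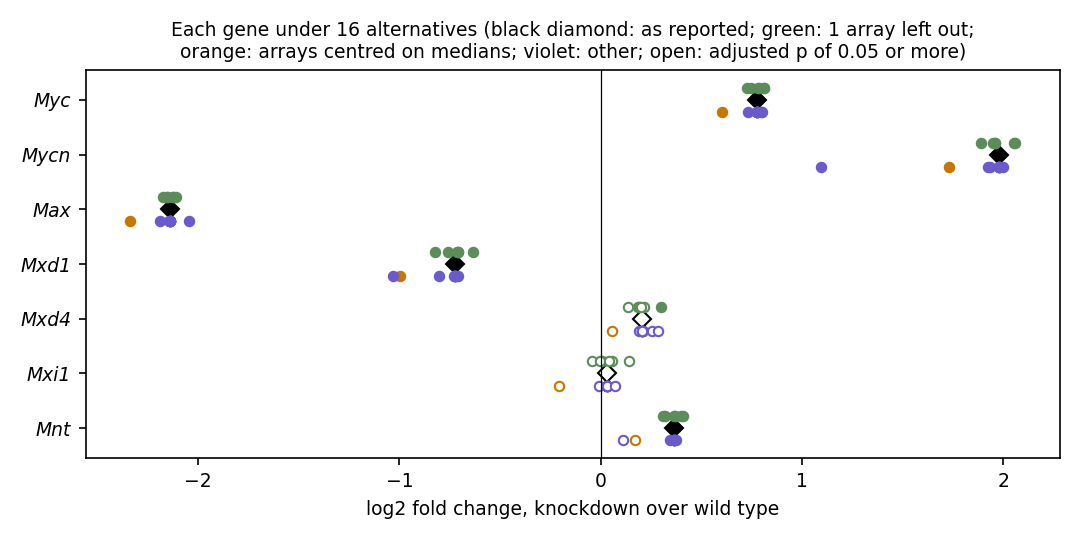
Log2 fold change of each gene as reported and under 16 alternatives of scaling, offset, filter, model, probe set summary and arrays left out. Mycn, Myc, Max and Mxd1 passed under all of them, Mnt failed under 2, and Mxd4 passed under 1.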

How the data were processed

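Mouse megakaryocytes were measured on 1 Affymetrix array per sample, 3 knockdown and 3 wild type, grouped by sample title. The authors deposited signal intensity on a linear scale for 45101 probe sets. The deposited values have a mean of 500.0 on every array after trimming 2% at each end, so the authors had scaled them. No label or header names the software or build. After quantile normalization, log2(signal + 32) was tested, without 64 controls and without probe sets below the 30th percentile of mean log2 value, with limma 3.58.1 in R 4.3.3 (lmFit, eBayes with trend, group only, two-sided, Benjamini-Hochberg over 31526 probe sets). Fold changes include the offset and understate changes of dim genes; mean ± SD values are of deposited signals. Background is the highest of 27 bacterial control probe sets on each array, and a fold against a group within it is written as at least. A gene is read from its brightest probe set; symbols were updated with the GRCm38.p6 table, which matched 34741 of 34945 probe sets with 1 symbol. Of 152 entries in 7 lists besides the 7 genes, 142 matched and 141 were tested. The genes and lists were chosen with earlier results of these data known. The genes named are Gata1, the 7 genes, up to 4 called genes in each direction of each list, and the 3 genes most like Myc and most like Mycn. For Wdr5, E2f2 and Ddit3 1 of 2 tested probe sets was called, and for Kat2b and Tfrc 1 of 3. Several other named list genes also had probe sets without a call. The test was tried on simulated data. Replicate letters were not used to pair the arrays in the main test. Deviations of same-letter arrays correlated at -0.04, -0.02 and -0.01, which does not settle whether they shared a culture or a day. Alternatives were offsets of 1 and 100, values as deposited, median centring, no filter, a 50th percentile filter, a background floor, no trend, a replicate block, the mean of a gene's probe sets and leaving out each array. The array number limits the precision.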

Additional observations from a re-analysis of the deposited data

How the results depend on the processing

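Myc, Mycn, Max and Mxd1 kept their direction and passed under all 16 alternatives, with log2 fold changes of 0.60 to 0.81, 1.10 to 2.06, -2.34 to -2.04 and -1.03 to -0.63. Mnt failed under median centring of the arrays (0.17) and with the mean of its 2 probe sets (0.11). Mxd4 lay between 0.058 (median centring) and 0.30 (without knockdown B, where alone it passed) under all 16, and between 0.14 and 0.30 when 1 array was left out. Mxi1 passed under none. Median centring moved the median log2 fold change of all genes to -0.08, against 0.03 as reported and 0.12 as deposited. It left 1188 genes called higher, against 2606, and 2957 called lower, against 2439. The share of calls that were rises was 28.7% with it, 56.4% as deposited and 51.7% as reported. Under it the counts of cofactors were 4 higher and 2 lower, of stability genes 1 higher and 3 lower, of nucleolar targets 18 higher, of metabolic targets 8 higher, of cell cycle targets 5 higher and of other network genes 1 lower. Counts of falls were small: cofactors had 0 without trend and with the replicate block, stability genes 1 without filter, without trend and with the block, and nucleolar targets 0 as deposited, without filter, with the floor and without trend. With 1 array left out, other network genes gave 1 to 2 rises, and falls ranged over 0 to 1 for cofactors, 0 to 3 for stability genes and 0 to 1 for nucleolar targets. The replicate block changed no call among the 7 genes (Max -2.14), and the labels read here do not say what arrays of the same letter share. The cause of these differences was not tested.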
